A study of Homo sapiens with 9 samples.

Results

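The comparison set cells given a tripartite ETR with a full-length gRNA against mock-treated cells, in 6 of the 9 libraries of the series, 3 per group, chosen by the titles of the samples. All cells were K-562, a human chronic myeloid leukaemia line that transcribes erythroid and megakaryocytic genes, and all carried the genotype B2M tdTomato, tdTomato being a red fluorescent protein. The ETR was built on dCas9, a form of Cas9 that is guided to DNA by its gRNA but does not cut, and was delivered as mRNA together with a gRNA for the B2M promoter by nucleofection. The labels describe the treated group as B2M epi-silencing. They do not say which domains the ETR carried, what the mock cells received or when RNA was taken. The library names call the mock group UT, which they do not explain. Effects of the ETR and of the lost B2M transcript cannot be told apart here. Those of nucleofection cannot be told apart from them if mock cells were not nucleofected. Whether the replicates came from separate cultures is not stated either. The p-values therefore reflect the spread among these libraries alone, and that spread may be technical.

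B2M encodes beta-2-microglobulin, the light chain that MHC class I heavy chains and their relatives need to fold and reach the cell surface. Targeted epigenetic silencers of this class join a programmable DNA-binding protein to domains taken from natural repressors, such as the KRAB domain of zinc finger proteins, which recruits machinery for repressive histone marks, and the DNA methyltransferases DNMT3A and DNMT3L. A silencer that acts at its own site alone would leave the other transcripts at their levels, apart from any that respond to the loss of its target or to the delivery. A genome-wide count of RNA shows, gene by gene, how near to equal the levels stayed. The narrower the interval around a gene's fold change, the more such a statement means, and the interval depends on how many reads the gene gave.

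The table held 59653 genes, 33525 of them with a count in any of the 9 libraries, and 15213 (45.4% of these) passed the filter on low counts and were tested. The untested genes held 0.0769% to 0.102% of each library's counts. Total counts were 25436995 to 33260228 in mock libraries and 23763529 to 28812940 with the full-length gRNA. Replicate 3 of the full-length group stood apart from the other 5 libraries of this comparison, together with replicate 3 of the 16-nt gRNA group. On the first principal component of the 9 libraries these lay at 30.7 and 26.9, and the other 5 between -19.1 and 2.37. RN7SL1, an RNA of the particle that directs secretory proteins to the endoplasmic reticulum, made up 6.66% and 5.95% of these libraries against 4.0% to 5.56% of the other 5. Class and list medians are also given without the treated library. All 14 erythroid and megakaryocytic markers were tested, and their summed level ranged over 1740 to 2338 CPM (counts scaled to sequencing depth) in mock libraries and 1830 to 2184 CPM with the full-length gRNA. The lymphocyte markers MS4A1, CD2, CD8A and NKG7 had 0 counts in all 6 libraries, although the labels give the cell type as lymphoblast.

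The promoter region is shown because the gRNA was directed at it and because the B2M neighbour PATL2 starts on its other side. In the table, which uses GRCh38, B2M spans 44711487 to 44721256 of chromosome 15 (plus strand) and PATL2 spans 44665732 to 44711316 (minus strand), 171 bases away. The 170 bases between both genes, from the RefSeq promoter table of GRCh38.p14 (plus strand, chr15:44711317-44711486), cover positions -200 to -31 from the B2M start in RefSeq. Capitals mark CpG, the dinucleotide that DNA methyltransferases modify.

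Stretch between PATL2 and B2M: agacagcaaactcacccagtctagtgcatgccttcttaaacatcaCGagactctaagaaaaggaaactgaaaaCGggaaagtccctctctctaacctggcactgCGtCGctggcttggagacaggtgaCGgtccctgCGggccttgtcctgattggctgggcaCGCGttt

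This stretch held 8 CpG and 53.5% G or C. The same window of all 27305 promoters in the table had a median of 7 CpG, and 52.0% of the promoters had fewer than that of B2M. It held 1 CCAAT box (CCAAT, minus strand, found on either strand in 26.4% of the promoters) and 1 cyclic AMP response half-site (TGACG, plus strand, 15.6%). It held 0 GC boxes (GGGCGG, 35.3%). These matches describe the letters only. The sequence of the gRNA is not used here.

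B2M gave 3681, 4304 and 3718 counts in the mock libraries and 309, 268 and 216 with the full-length gRNA. Scaled to depth these were 147, 135 and 135 CPM against 10.8, 9.21 and 9.09 CPM. Every treated library lay far below every mock library, and the spread within a group was small beside the distance between groups. Per length, B2M stood at 42.0, 37.7 and 46.7 TPM (transcripts scaled to length and depth) in mock cells, which placed it at ranks 2154, 2426 and 2302 of all genes, and at 3.33, 3.12 and 2.39 TPM with the full-length gRNA, at ranks 10001, 10502 and 10716. Among protein-coding genes it moved from ranks 2094, 2361 and 2236 to 9103, 9400 and 9423. B2M fell by 3.84 on the log2 scale (SE 0.12), a 14.3-fold fall with a 95% interval of 12.03 to 17.0-fold, to 6.98% of the mock level (edgeR quasi-likelihood test, Benjamini-Hochberg adjusted p = 3.50e-11). In these bulk libraries a lower level in each cell and a smaller share of cells with B2M transcript cannot be told apart.

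B2M was the only gene called at an adjusted p under 0.05, 1 of 15213 or 0.00657%, with 0 genes higher and 1 lower by edgeR and by DESeq2. The next lowest adjusted p among the other 15212 genes was 0.992. At an unadjusted p under 0.05 there were 435 genes, 2.86% of those tested, of which 255 stood higher (1.68%) and 180 lower (1.18%). With library totals in place of TMM scaling the split was 286 higher and 116 lower. Without replicate 3 of the full-length group there were 289 such genes, 133 higher and 156 lower, and without replicate 1 there were 1469, 747 higher and 722 lower. The 3 libraries of a group lay entirely above or below those of the other in 1050 genes, 6.9% of those tested, 515 higher (3.39%) and 535 lower (3.52%).

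A gene that is not called may still have moved, so each gene's 95% interval was set against fixed folds. Among the 11704 genes whose mean log2 CPM was 1 or more, the interval lay within 1.5-fold in both directions for 90.9% and within 2-fold for 99.0%. Over all 15213 tested genes these shares were 70.5% and 85.9%. The median size of a fold change was 1.06-fold among the 11704 genes and 1.07-fold over all tested genes. No interval other than that of B2M reached the log2 fold change of B2M, 0 of 15212 genes. An interval reached a 4-fold fall in 33 other genes, and in only 2 of those at a mean log2 CPM of 1 or more, MT-RNR1 and MT-RNR2, the mitochondrial ribosomal RNAs. It reached a 2-fold fall in 11 of the other genes at 1 or more and a 2-fold rise in 102.

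The precision followed the expression level. Below a mean log2 CPM of 0, none of 2337 genes had an interval within 1.5-fold and 24.7% had one within 2-fold. The shares within 1.5-fold were 23.8% of 2285 genes from 0 to 2, 87.7% of 2604 from 2 to 4, 98.5% of 4468 from 4 to 6, 99.5% of 2912 from 6 to 8 and 99.0% of 607 at 8 and over. The median half-width of the interval narrowed from 0.90 on the log2 scale in the lowest band to 0.19 between 6 and 8. For the lowest band a typical interval thus reached 1.86-fold either way from the estimate, and for genes of 6 to 8 it reached 1.14-fold.

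**Figure D1:**
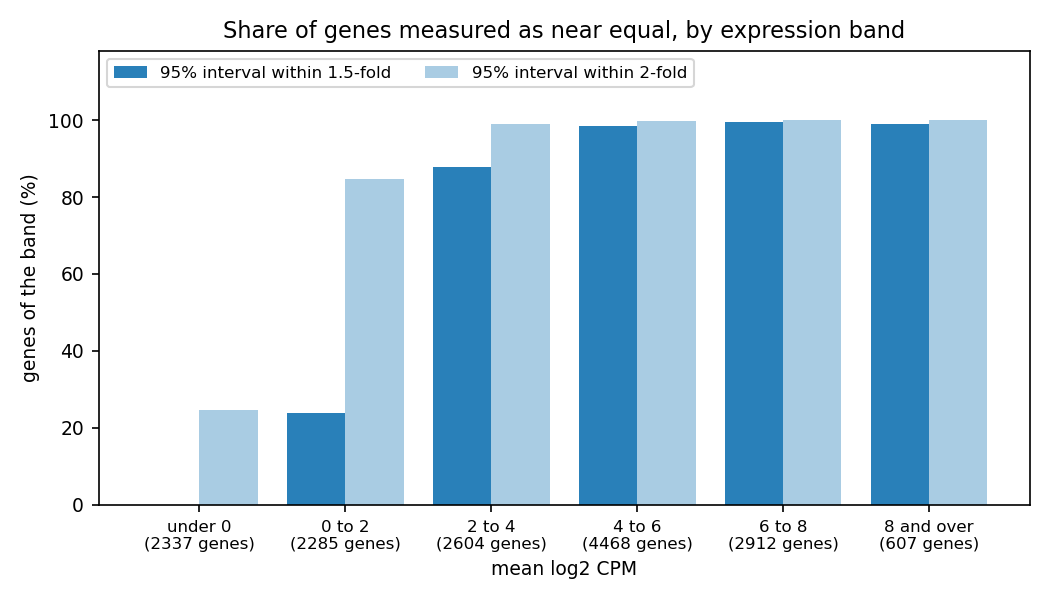
Percent of genes (vertical axis) whose 95% interval lay within 1.5-fold (dark bars) or 2-fold (light bars) in each band of mean log2 CPM (horizontal axis, with the number of genes). The dark bars climb from 0 and 23.8% in the lowest bands to 98.5% and above from a mean log2 CPM of 4.

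The median log2 fold change moved from positive to negative along the same bands. It was 0.10 below 0, 0.063 from 0 to 2, 0.015 from 2 to 4, -0.012 from 4 to 6, -0.023 from 6 to 8 and -0.028 at 8 and over. With library totals the band from 4 to 6 turned to 0.0060, while the signs of the other bands were as with TMM. Against the mock mean, the median gene of the lowest band stood at 0.021, -0.042 and 0.063 in mock replicates 1 to 3 and at -0.024, 0.073 and 0.29 in the treated ones. The groups overlapped in every band, and the positive median rested on treated replicate 3. Without that library the medians of the bands below 0 and from 0 to 2 were -0.017 and 0.0078. The other medians shrank as well, to 0.0049 from 2 to 4, -0.00045 from 4 to 6, -0.0065 from 6 to 8 and -0.017 at 8 and over. In the lowest band 76 genes stood higher and 31 lower at an unadjusted p under 0.05, against 3 and 1 in the highest. These were 4.58% and 0.659% of the genes of each band, beside 2.86% of all tested genes.

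Of the most abundant messenger RNAs, those named here had estimates within 1.5-fold. EEF1A1, the translation elongation factor, gave 334307, 452319 and 336408 counts in mock libraries and 377364, 329734 and 277790 with the full-length gRNA, a log2 fold change of -0.13 (95% interval -0.39 to 0.12). FTL, the ferritin light chain, had 126476, 191265 and 107256 against 146378, 178455 and 124881 counts (0.14, interval -0.15 to 0.44), and EEF2 had a log2 fold change of -0.00 (interval -0.24 to 0.23). For each of these genes the groups overlapped. The noncoding RNAs RN7SL1 and RMRP, the latter the RNA of a ribonuclease, had wider intervals, -0.43 to 0.52 and -0.35 to 0.60. RN7SL3, a copy of RN7SL1, had one of -0.63 to 0.31. Without both ETR libraries numbered 3 the estimate of RN7SL1 went from 0.049 to -0.18 and that of RN7SL3 from -0.16 to -0.44. In the whole set of 3519 other genes at a mean log2 CPM of 6 or more, 0 had an estimate past 1.5-fold. The extremes were LENG8 at 0.42 and H4C2, a replication-dependent histone H4 gene, at -0.31. Of 11703 other genes at 1 or more, 34 were past 1.5-fold, 30 higher and 4 lower, from SCNN1D, an epithelial sodium channel subunit (0.94), to U3 (-0.77), a name under which the table joins several copies of a small nucleolar RNA.

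By gene type, 12126 protein-coding genes had a median of -0.010, with 161 higher and 161 lower at an unadjusted p under 0.05 (2.66% of them). Their sign turned positive with upper quartile factors (0.00033) and library totals (0.0076). Long noncoding RNAs (1847 genes) had a median of 0.099 and pseudogenes (799) one of 0.079. The tally at an unadjusted p under 0.05 was 51 higher and 9 lower for long noncoding RNAs and 34 higher and 6 lower for pseudogenes. These were 3.25% of the long noncoding RNAs and 5.01% of the pseudogenes, beside 2.86% of all tested genes. The median long noncoding RNA stood at -0.0021, -0.043 and 0.069 in mock replicates 1 to 3 and at -0.013, 0.069 and 0.27 in the treated ones. Treated replicate 2 was level with the highest mock library and treated replicate 3 lay well above it. Without it the medians were 0.0074 for long noncoding RNAs and 0.019 for pseudogenes. Small or structural RNAs (120 genes) had a median of -0.00029, or -0.18 without that library, in which their median stood at 0.42. Within the band from 2 to 4, where counts were alike, protein-coding genes had a median of 0.0031 and long noncoding RNAs one of 0.069, or 0.0034 and 0.0032 without treated replicate 3.

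Chromosome by chromosome the medians were close to 0. Over genes at a mean log2 CPM of 1 or more, the 23 medians of chromosomes 1 to 22 and X ran from -0.059 on chromosome 4 to 0.038 on chromosome 22, and the groups overlapped on all 23, so 0 chromosomes were lower and 0 higher without overlap. The 3 lowest were chromosomes 4, 13 (-0.051) and 18 (-0.050), and the 3 highest were 22, 19 (0.035) and 16 (0.034). Without treated replicate 3 the range was -0.021 to 0.019, without mock replicate 2 it was -0.078 to 0.085, and without mock replicate 3 it was -0.046 to 0.0037. Chromosome 15, which carries B2M, had a median of -0.018 over 373 genes, of which 88.5% had an interval within 1.5-fold. Apart from B2M, 7 of its genes stood higher and 3 lower at an unadjusted p under 0.05. With B2M counted these were 2.95% of the 373, beside 2.46% of all genes at 1 or more. The 15 genes of the mitochondrial genome spread most. Their median stood at -0.62, 0.48 and 0.074 in mock replicates 1 to 3 and at -0.41, 0.69 and 0.28 in the treated ones, with the first replicate low in both groups. MT-RNR2 had 236, 1617 and 165 counts against 114, 416 and 578, a log2 fold change of -0.66 with an interval of -2.09 to 0.76.

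**Figure D2:**
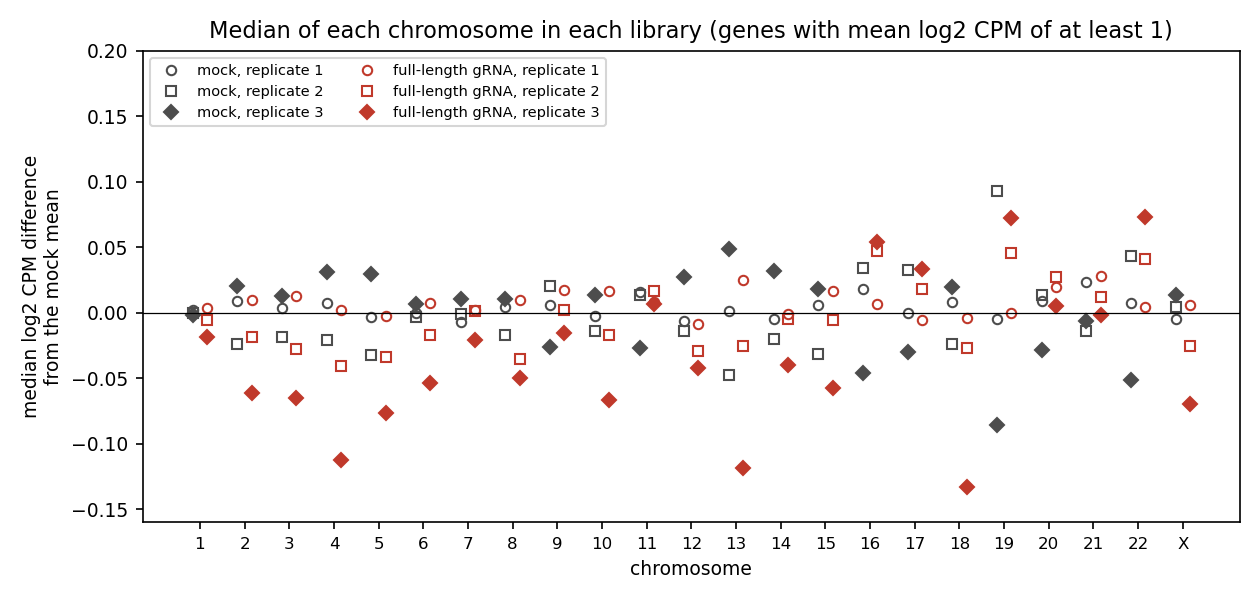
Median log2 CPM difference from the mock mean (vertical axis) over genes at a mean log2 CPM of 1 or more, for each chromosome (horizontal axis), 1 symbol per library, grey for mock and red for full-length gRNA. Red and grey symbols overlap on all 23 chromosomes, and treated replicate 3 (filled red diamonds) is the lowest on chromosomes 4, 13 and 18.

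Classes of gene length and of promoter CpG content also had medians close to 0. The median log2 fold change went from 0.040 for the 329 genes with less than 1 kb of exon to -0.016 for the 2663 with 8 kb and over, which became 0.0023 with library totals. Promoter CpG was counted in the 300 bases around the start of 8699 protein-coding genes at 1 or more, or 81.8% of them, and B2M had 22 in this window. The medians were -0.016 for 456 genes with under 5 CpG, -0.0034 for 923 with 5 to 14, -0.024 for 2275 with 15 to 24 and -0.012 for 5045 with 25 and over. In the class of B2M, 95.5% of genes had an interval within 1.5-fold.

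The neighbourhood of B2M was examined gene by gene, since silencing can reach beyond its target. Within 1 Mb, 22 genes were tested and 0 were called. PATL2, a gene of the maturing oocyte that is divided from B2M only by the stretch printed above, had 3, 0 and 7 counts in mock libraries and 8, 12 and 25 with the full-length gRNA. The groups did not overlap, yet 1 mock library had 0 counts. No mock library reached the filter's minimum count of 10, so PATL2 was tested only through ETR libraries, where it stood higher. Its log2 fold change was 2.2 (SE 0.73, 95% interval 0.64 to 3.76, unadjusted p = 0.00886, edgeR adjusted p = 0.992). The gene was kept in 13 of the 16 alternatives, with estimates between 1.5 and 3.3. These values are description only. TRIM69, a tripartite-motif ubiquitin ligase whose span starts 10111 bases past the end of B2M, had 288, 368 and 254 counts against 412, 373 and 317. In depth-scaled values it stood at 10.8 ± 1.31 CPM in mock cells and 13.5 ± 0.833 CPM with the gRNA (SD, n = 3 each), without overlap. Its log2 fold change was 0.33 (SE 0.12, unadjusted p = 0.0170, edgeR adjusted p = 0.992), with alternatives between 0.23 and 0.38. The 16-nt gRNA libraries, which share their mock libraries with this comparison, had 10, 10 and 18 counts of PATL2 and 344, 382 and 297 of TRIM69. Further off, SPG11 on the far side of PATL2 had a log2 fold change of -0.01 (interval -0.21 to 0.18). The pseudogene CATSPER2P1 stood at 0.67 (unadjusted p = 0.00674), and EIF3J, a translation initiation factor subunit, at -0.26 (unadjusted p = 0.0340).

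The partners of beta-2-microglobulin, whose proteins depend on it for surface display, were measured as transcripts. Of 15 such genes 6 were tested and 0 were called. Among MHC class I heavy chains, HLA-E had 1610, 2313 and 1840 counts against 1873, 1857 and 1768, a log2 fold change of -0.00 (interval -0.18 to 0.18). HLA-C had 270, 307 and 263 against 325, 319 and 260 (0.15, interval -0.07 to 0.38), and HLA-B had 62, 98 and 49 against 78, 72 and 93 (0.30, interval -0.20 to 0.80, estimate 0.084 without both ETR libraries numbered 3). In CPM, HLA-C stood at 9.57 to 10.8 in mock libraries and at 10.9 to 11.4 with the gRNA. It was the 1 tested partner higher without overlap, as were 3.39% of all tested genes. HLA-F had 0 counts in all 6 libraries. Of the related proteins, FCGRT, the heavy chain of the neonatal Fc receptor, had 333, 540 and 436 counts against 508, 468 and 510 (0.26, interval -0.01 to 0.52, unadjusted p = 0.0547). MR1, which presents vitamin metabolites, stood at 0.01 (interval -0.20 to 0.22), and HFE, a regulator of iron uptake, at -0.03 (interval -0.32 to 0.26). The summed level of all 15 genes was 140 to 142 CPM in mock libraries and 139 to 152 CPM with the gRNA.

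Of 3 genes from which silencers of this class take their domains, 2 were tested and 0 were called. Only 1 of them, DNMT3A, had an interval within 1.5-fold. DNMT3A had 1493, 2191 and 2089 counts against 1915, 1864 and 1702, a log2 fold change of -0.01 (interval -0.21 to 0.18). ZNF10, a KRAB zinc finger gene, had 44, 49 and 53 against 55, 60 and 40 (0.13, interval -0.36 to 0.61). DNMT3L, the catalytically inactive partner of DNMT3A, had too few counts to be tested, 7, 8 and 4 against 4, 6 and 3.

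Genes in common use as references for quantitative PCR were near equal as a list. All 20 had an interval within 1.5-fold, their median was 0.00055 beside 0.00021 over all tested genes, and 10 lay above 0 and 10 below. That balance moved with single libraries, to 5 above and 15 below (median -0.073) without mock replicate 3 and to 3 above and 17 below (-0.043) without treated replicate 1. Without treated replicate 3 it was 12 above and 8 below (0.020). The estimates ran from HPRT1, a purine salvage enzyme, at -0.24 to POLR2A, the largest subunit of RNA polymerase II, at 0.11. HPRT1 had 1297, 1752 and 1511 counts in mock libraries and 1514, 1198 and 1022 with the gRNA, where treated replicates 2 and 3 were low (unadjusted p = 0.0388). RER1, TBP and PSMB4 each had a log2 fold change of 0.01, with intervals no wider than -0.19 to 0.21.

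Across the 21 gene lists, 485 genes were tested, and 3 stood higher and 8 lower at an unadjusted p under 0.05, or 2.27% beside 2.86% of all tested genes. None of the 485 was called. All 32 proteasome subunits, which degrade tagged proteins, had an interval within 1.5-fold, with 8 above 0, 24 below and a median of -0.048, which ranged from -0.072 to -0.035 when 1 library at a time was left out. All 66 nuclear-encoded respiratory chain genes did so too, with a median of -0.0031. It was 0.052 (41 above 0, 25 below) without mock replicate 2 and -0.042 (21 above, 45 below) without mock replicate 3. The 20 cytosolic aminoacyl-tRNA synthetases, which load amino acids onto tRNA, had a median of -0.098 with 17 below 0, beside -0.0078 over genes at 1 or more. With library totals it was -0.080 with 15 below 0, without treated replicate 3 it was -0.042 with 16 below 0, and without treated replicate 1 it was -0.15 with 18 below 0. HARS1, the histidine enzyme, had 2112, 2946 and 2374 counts against 2112, 2088 and 1961 (-0.21, SE 0.09, unadjusted p = 0.0387).

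The median was -0.036 for the 43 genes of RNA polymerase II and its general factors and -0.040 for the 42 of the core spliceosome, and both were -0.019 without treated replicate 3. The spliceosome member U2AF1, counted as 7, 13 and 25 against 23, 19 and 44 (1.02), has a near-identical copy in the annotation of this build and is uncertain. The median of 37 translation factors was -0.024, or -0.011 without treated replicate 3 and -0.079 without treated replicate 1. Among them, EIF5B had 3243, 4536 and 3820 counts against 3482, 3351 and 2583 (-0.25, unadjusted p = 0.0179). It was -0.029 for 29 nuclear pore genes, with 0.013 without treated replicate 3 and -0.078 without treated replicate 1 or mock replicate 2. For 29 coat and translocation genes of the secretory pathway it was -0.032, with -0.0067 without treated replicate 3 and -0.084 without treated replicate 1.

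Among stress and growth genes, HMOX1, the heme-degrading oxygenase, had 1137, 1989 and 1432 counts against 1812, 2137 and 1475 (0.31, SE 0.11, unadjusted p = 0.0105), and the groups overlapped. The 20 NRF2 targets to which it belongs had 10 members above 0 and 10 below. The split was 15 and 5 without treated replicate 3 and 7 and 13 without treated replicate 1. Of 27 apoptosis genes 0 reached an unadjusted p under 0.05, in either direction. Of 60 cancer genes EP300, a histone acetyltransferase, stood higher at an unadjusted p under 0.05 (0.16), with 1921, 2528 and 2190 counts against 2338, 2663 and 2150. Among 34 surface proteins other than MHC class I, TFRC, the transferrin receptor, had 15885, 16042 and 14414 counts against 14233, 13547 and 9823, without overlap in CPM (-0.27, SE 0.10, unadjusted p = 0.0205).

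Genes with the smallest unadjusted p of their band or type did not pass the test after adjustment, and the largest estimates among them were at low levels. FIRRE, an X-linked long noncoding RNA that helps to organise chromatin, had 23, 29 and 18 counts in mock libraries and 4, 7 and 2 with the full-length gRNA. Its log2 fold change was -2.35 (SE 0.49, 95% interval -3.40 to -1.30, unadjusted p = 0.000256, edgeR adjusted p = 0.992). PREX2, a guanine nucleotide exchange factor for Rac, had 24, 31 and 20 counts against 7, 7 and 6 (-1.83, SE 0.38, unadjusted p = 0.000217). In both genes every treated library lay below every mock library. Neither gene reached the filter's minimum count of 10 in any full-length library. Both thus passed the filter on other libraries, where they stood higher, and their values are description only. The 16-nt gRNA libraries, compared with the same mock libraries, had 8, 2 and 4 counts of FIRRE and 13, 8 and 10 of PREX2. At higher levels, HPF1, a cofactor of PARP1, had 400, 577 and 530 counts against 372, 355 and 345 (-0.43, SE 0.11, unadjusted p = 0.00191). NDRG1, a hypoxia-responsive gene, had 2416, 3542 and 2918 against 2321, 2548 and 2121 (-0.28, unadjusted p = 0.00254).

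Higher in the treated libraries at the smallest unadjusted p of their bands were PRSS36 (1.57), a serine protease with 6, 5 and 4 counts against 11, 21 and 12, and PLIN4 (0.91), a lipid droplet protein with 17, 28 and 27 against 40, 49 and 41. TSPAN18, a tetraspanin, had 115, 139 and 109 counts against 174, 167 and 146 (0.48). EGFL7, a secreted protein of endothelial and blood cells, had 6321, 8056 and 7007 against 8545, 8543 and 7855 (0.28, SE 0.09, unadjusted p = 0.00677). PKD1, the polycystin gene, also stood at 0.28. None of these overlapped between groups in CPM, as in 6.9% of all tested genes.

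Transcripts found in 1 group only were few and shallow. With at least 10 counts in total in one group and 0 in the other there were 6 genes seen only with the gRNA and 5 seen only in mock cells, and with at least 20 counts there were 0 and 0. One of the 5 was CIITA, the transactivator of MHC class II genes, with 0, 8 and 2 counts in mock libraries. Another, TPTE2P5, had 16 counts in mock replicate 2 and 0 in the other mock libraries. With at least 5 counts the numbers were 90 and 117. These genes were chosen after their values were seen and were too shallow to be tested.

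Libraries of different groups were about as far apart as libraries of the same group. Over genes at 1 or more, the median absolute difference in log2 CPM between libraries of the same group ran from 0.120 to 0.181, and between libraries of different groups from 0.0704 to 0.198. The closest pair of all was mock with full-length gRNA replicate 1, of which 0.786% of genes differed by over 1.5-fold. The means of both groups differed by a median of 0.0787, and by over 1.5-fold in 0.179% of genes.

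With the replicate number as a block, the counts at an unadjusted p under 0.05 went up while the calls stayed at 1. The block gave 886 genes at an unadjusted p under 0.05, 5.82% of 15213, in place of 435, and B2M was again the only call. It lowered the median SE among genes at 1 or more from 0.106 to 0.0951, and the share of these genes with an interval within 1.5-fold went from 90.9% to 93.5%. With the 6 libraries of this comparison alone and the block, 619 genes of 14785 had an unadjusted p under 0.05, the next lowest adjusted p after B2M was 0.155, and the share was 93.2%. B2M fell 14.3-fold with and without the block. PATL2, tested only through ETR libraries, had an unadjusted p of 0.00122 with the block, and TRIM69 one of 0.00798 (edgeR).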

How the data were processed

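RNA was sequenced from K-562 B2M tdTomato cells, 3 libraries per group, with total RNA extracted by RNeasy columns and libraries made with the NEBNext Ultra RNA kit, per the labels' protocols. The authors deposited 1 table of raw counts per gene, without normalization, and an exon length per gene. The submitters' processing notes name GRCh38, STAR 2.7.6a, Trim Galore 0.6.6, featureCounts of Subread 2.0.1 and DESeq2 1.30.0. The annotation release, strand setting and multi-mapping rule were not given in the sources used here, so overlapping genes, antisense pairs (PATL2 and B2M do not overlap in the table) and near-identical copies are uncertain. The table held 0 sample columns without a label.

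Here edgeR 4.0.16 in R 4.3.3 was run on all 9 libraries with a term per group (TMM, filterByExpr by group with a minimum count of 10, quasi-likelihood F test, two-sided) and p-values were Benjamini-Hochberg adjusted over 15213 genes. Genes with an adjusted p under 0.05 were called. Standard errors of edgeR were taken from the fold change and its F value. For estimates very near 0 they came from the fitted weights and the quasi-likelihood dispersion. The 95% intervals of edgeR used a t quantile and those of DESeq2 a normal quantile. CPM used TMM-scaled totals and TPM the deposited lengths. Deviations by library used log2 CPM with a prior count of 2. DESeq2 1.42.0 was an alternative. Gene types came from GENCODE 29 (14658 genes) and RefSeq (341), and 214 tested genes were unmatched. 74 genes lie on several chromosomes. The test was checked on simulated counts. Alternatives covered scaling, filters, tool, samples, the replicate block and each library left out.

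The comparison and the lists were chosen with earlier results of these data known. Named genes are B2M, called genes, the 12 most abundant in mock cells, the smallest p in each direction of each band, type and list, all members of the reference, partner and effector lists, the nearest tested gene on each side of B2M and the smallest p within 1 Mb. Of the 93 genes this took, those that bear on a paragraph are named, some are not reported here, and others named (SPG11, EIF3J, the extremes of a class, genes found in 1 group) were chosen after their values were seen. Markers of B lymphocytes (summed 3.46 to 4.52 CPM in mock, 2.84 to 4.06 treated), T and NK lymphocytes (0.240 to 0.532 and 0.547 to 0.877), monocytes and granulocytes (0.240 to 0.376 and 0.584 to 0.673), fibroblasts and endothelium (2.68 to 3.82 and 2.70 to 4.00) and epithelium (429 to 547 and 452 to 511) gave 0 calls.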

Additional observations from a re-analysis of the deposited data

How the results depend on the processing

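B2M kept its direction and its call under all 16 alternatives, with a fall between 13.9-fold and 15.2-fold. It remained the only call except without a filter on low counts, where 6 of 33525 genes were called, B2M, MAPK8IP3 (0.63), MIR223HG (0.69), FIRRE (-2.35), MT-RNR1 (-0.71) and MT-RNR2 (-0.66). Those genes were named after their values were seen, and MT-RNR1 had 140, 1066 and 94 counts in mock libraries. The share of genes with an interval within 1.5-fold was 93.2% without the filter, 89.99% with library totals and 89.9% with DESeq2. Leaving out 1 library at a time gave 1 call each time and a share from 85.1% to 90.3%. The number of genes at an unadjusted p under 0.05 ranged from 289 without treated replicate 3 to 1469 without treated replicate 1, against 435, and DESeq2 gave 354. Without both ETR libraries numbered 3 it was 258. Of 92 named genes beside B2M, 64 had the same sign in all alternatives and 28 did not.

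The replicate block gave a share of 93.5% with 9 libraries and 93.2% with 6, and changed no call. The main fit did not treat the numbers as pairs. The deviations of mock and treated libraries with the same number correlated at 0.376, 0.0278 and 0.198 over 11704 genes. For each treated library this was the highest of its correlations with the mock libraries. From the mock side, replicate 2 correlated best with treated replicate 3 (0.0751). No origin of the numbers is given, so they are shared numbers only.

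Depth limits the statement of equality to genes with a mean log2 CPM of about 2 and over. Below that, most genes had an interval that reached past 1.5-fold. It lay within 1.5-fold for 0% of genes under 0 and 23.8% of those from 0 to 2. With 3 libraries per group a gene of a few counts, such as PATL2, cannot be placed closely. Other scalings moved the median of all genes by at most 0.018.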
